A study of Homo sapiens with 12 samples.

Results

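The miR-17~92 cluster is a group of 6 microRNA hairpins that are cut from one primary transcript, MIR17HG. Its members were taken by name from a table of miRNA counts, and 10 of the 2588 entries in that table belong to it. The table lists them as hsa-miR-17-5p and hsa-miR-17-3p, hsa-miR-18a-5p and hsa-miR-18a-3p, hsa-miR-19a-3p, hsa-miR-19b-3p, hsa-miR-20a-5p and hsa-miR-20a-3p, and hsa-miR-92a-3p and hsa-miR-92a-1-5p, and the species prefix is left out from here on. All 10 had at least 1 count in each of the 12 libraries, and all 10 passed the filter on low counts in every comparison reported. The rule uses the names alone, but the members were chosen with earlier results of these data known.

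The study read small RNAs of MDA-MB-231, a human line from a triple-negative breast tumour, and of the membrane vesicles that its cells shed into the medium (extracellular vesicles, EVs). There were 3 lines and 6 groups, with 2 libraries in each group. The miR-122 knockout line was edited with CRISPR-Cas9 and 2 guide RNAs against the miR-122 gene. The RAB27A knockdown line carried a lentiviral shRNA against RAB27A, a small GTPase that helps vesicles dock at the plasma membrane. The control line carried the empty lentiviral shRNA vector, which is the matching control of the knockdown line, and no separate control for the editing was analysed here. All cells were grown in 10% fetal bovine serum. EVs were pelleted by ultracentrifugation from serum-free medium with 1% BSA conditioned for 24 h, and the cells that released them were collected at the same time. Each condition is 1 line, and the labels do not say if it is 1 clone or if its 2 libraries stem from different cultures. The p-values therefore reflect library-to-library spread, which may be technical.

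MicroRNAs silence messenger RNAs that pair with their seed, the bases near the 5′ end. In each hairpin one arm, the guide strand, is usually loaded into Argonaute and kept, and the other arm, the passenger strand, is mostly degraded. The cluster is known as an oncogenic locus that MYC activates and that is amplified in some lymphomas. Its guide strands fall into seed families. miR-17-5p and miR-20a-5p form one, which acts on cell cycle genes such as CDKN1A and E2F1. miR-19a-3p and miR-19b-3p form another, and miR-18a-5p and miR-92a-3p each have a seed of their own within the cluster.

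The mature sequences are shown because members of one seed family, and members from one hairpin, behaved differently in the data. They come from RefSeq on GRCh38.p14, run 5′ to 3′, and carry the seed (bases 2 to 8) in capitals. The first pair shares the seed of the miR-17 family.
miR-17-5p: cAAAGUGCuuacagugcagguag
miR-20a-5p: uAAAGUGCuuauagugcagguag
miR-18a-5p: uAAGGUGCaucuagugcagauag
miR-19a-3p: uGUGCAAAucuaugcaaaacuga
miR-19b-3p: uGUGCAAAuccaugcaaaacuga
miR-92a-3p: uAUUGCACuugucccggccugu
miR-17-3p: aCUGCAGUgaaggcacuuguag
miR-18a-3p: aCUGCCCUaagugcuccuucugg
miR-20a-3p: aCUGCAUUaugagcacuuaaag
miR-92a-1-5p: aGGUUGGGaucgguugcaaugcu
Positions are counted from 1 at the 5′ end of the first-named miRNA. miR-17-5p and miR-20a-5p differ by C1U and C12U, both outside the seed, and miR-19a-3p and miR-19b-3p differ by U11C alone.

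The 6 hairpins lie on the plus strand of chromosome 13 within 787 bases, at chr13:91350605-91351391 (GRCh38.p14). The host gene MIR17HG (ENSG00000215417.12, GENCODE v29) spans chr13:91347820-91354579, and all 6 hairpins fall in one intron of one of its 3 transcripts and in the last exon of the other two. The submitters' processing notes name hg19, and the count table carries no coordinates. The hairpins of miR-17 and miR-20a are shown with both mature arms in capitals, since their arm shares and their ratio are compared further on.
MIR17: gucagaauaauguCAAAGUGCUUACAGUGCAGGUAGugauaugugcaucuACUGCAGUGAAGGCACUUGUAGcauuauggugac
MIR20A: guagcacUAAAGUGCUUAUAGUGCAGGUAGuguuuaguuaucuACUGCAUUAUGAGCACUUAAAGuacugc
Identical mature sequences of miR-19b-3p and miR-92a-3p are also made from MIR19B2 and MIR92A2 on the X chromosome, so their counts cannot be assigned to one locus. Reads of miR-17-5p, miR-18a-5p and miR-20a-5p may also be split with close copies described at the end, because the labels do not give the number of mismatches allowed in the counting.

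Library totals ran between 164656 and 11840597 counts. Both RAB27A knockdown EV libraries were the shallowest, at 164656 and 170366 counts, so that 1 count there was worth 6.07 and 5.87 CPM (a count scaled to a library of 1000000 counts). miR-122-5p had 0 counts in both knockout cell libraries, which allows up to 0.295 and 0.305 CPM. It had 0.422 and 0.361 CPM in control cells, from 9 counts in all, and 12.3 and 12.7 CPM in knockdown cells. Control cells were thus too near the floor for this to check the knockout label. In EVs miR-122-5p had 1.07 and 0.947 CPM for the knockout, against 331 and 251 CPM for the control. The files hold no RAB27A value. A set of 4 miRNAs known to be abundant in MDA-MB-231 made up 45.4% to 68.6% of the counts in every library, and the 5 miR-200 family markers of epithelial cells, which this mesenchymal-like line holds at low level, summed to 129 to 425 CPM. A list of 10 blood-cell and serum miRNAs summed to 183 CPM in knockout EVs, 247 CPM in knockdown EVs and 10988 CPM in control EVs, against 124 to 278 CPM in the means of the 3 cell groups. None of the 10 was at 0 in control EVs, while 1 was at 0 in each knockout EV library and 4 or 5 in each knockdown EV library. All 10, miR-122-5p among them, passed as lower in knockout EVs than in control EVs (edgeR adjusted p under 0.05). Over all miRNAs tested 22.3% did so, and the fall of miR-122-5p there cannot check the label either. A list of 5 stromal miRNAs summed to 34.1 CPM, 113 CPM and 3249 CPM in those same EV groups. Counts are shares of a library, so less of a member and more of other miRNAs cannot be told apart.

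The cluster as a whole was a minor part of each library and was smallest in miR-122 knockout cells. Its 10 entries made up 0.817% ± 0.00342 of the counts in knockout EVs, 1.59% ± 0.0180 in knockdown EVs and 1.03% ± 0.0385 in control EVs (SD, n = 2 each). In cells the shares were 0.533% ± 0.116 for the knockout, 1.37% ± 0.0715 for the knockdown and 1.28% ± 0.0543 for the control (SD, n = 2 each). The 2 knockout cell libraries, at 0.451% and 0.615%, lay below all other libraries. The 6 guide strands and 4 minor arms covered a wide range, from 2.24 CPM for miR-20a-3p in one knockout cell library to 5994 CPM for miR-20a-5p in one knockdown EV library. Across the 12 libraries miR-20a-5p varied most, with a highest level 21.3 times its lowest, followed by miR-20a-3p at 10.7 times and miR-18a-5p at 6.53 times. The other 7 entries varied by 2.29 to 4.35 times.

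**Figure D1:**
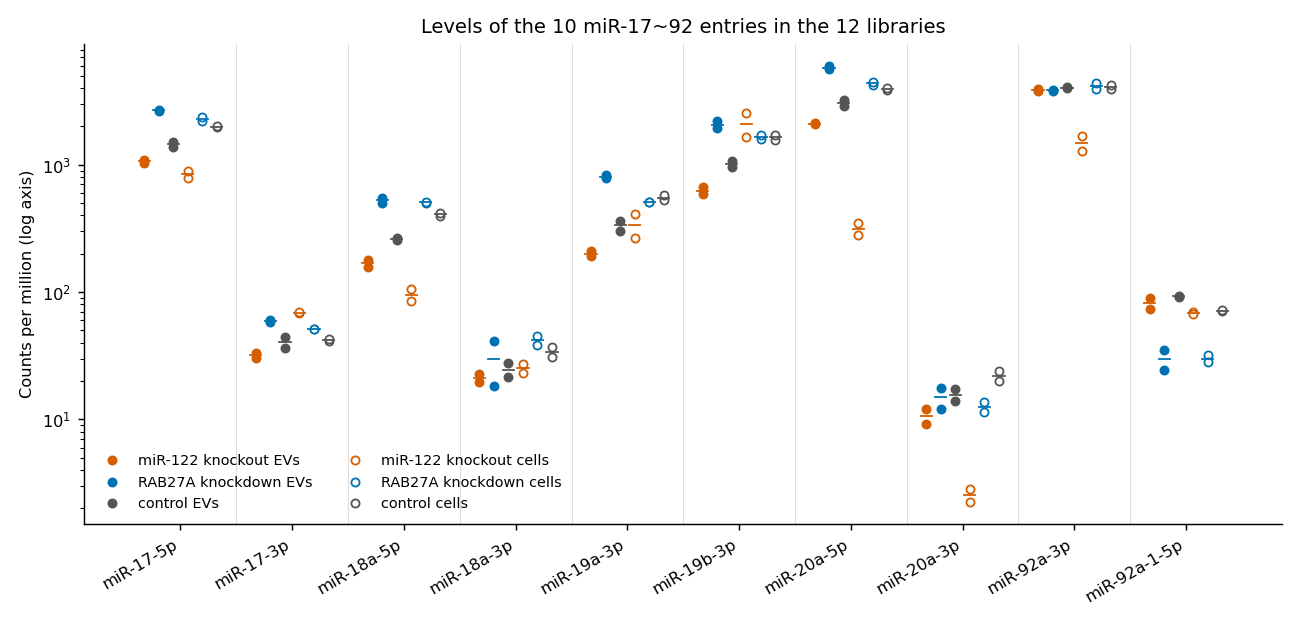
CPM (log axis) of the 10 cluster entries, with a point for each library and a short line at each group's mean. EVs are filled and cells are open. miR-20a-5p in knockout cells (281 and 347 CPM) lies below its other 10 libraries, and the same holds for miR-20a-3p.

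The leading member was the same in both libraries of each group, and in cells it differed between the 3 lines. The whole order of the 6 guide strands was the same in both libraries of 5 groups, while in knockout cells miR-20a-5p and miR-19a-3p changed places. miR-92a-3p led in control cells, control EVs and knockout EVs, miR-20a-5p led in knockdown cells and knockdown EVs, and miR-19b-3p led in knockout cells, each in both libraries. miR-20a-5p made up 5.94% ± 0.418 of the cluster's counts in knockout cells and 25.8% to 36.6% in the means of the other 5 groups. miR-19b-3p made up 38.9% ± 3.60 in knockout cells and 7.68% to 13.1% elsewhere (SD, n = 2). Neighbours at the top of the order were close in control cells, where miR-92a-3p had 3934 and 4260 CPM and miR-20a-5p had 3836 and 4011 CPM, so these levels overlap. In knockdown cells miR-20a-5p (4239 and 4508 CPM) and miR-92a-3p (3972 and 4389 CPM) also overlap. In EVs, miR-92a-3p held 47.2% ± 1.68 of the cluster for the knockout, 24.2% ± 0.176 for the knockdown and 39.2% ± 2.17 for the control.

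**Figure D2:**
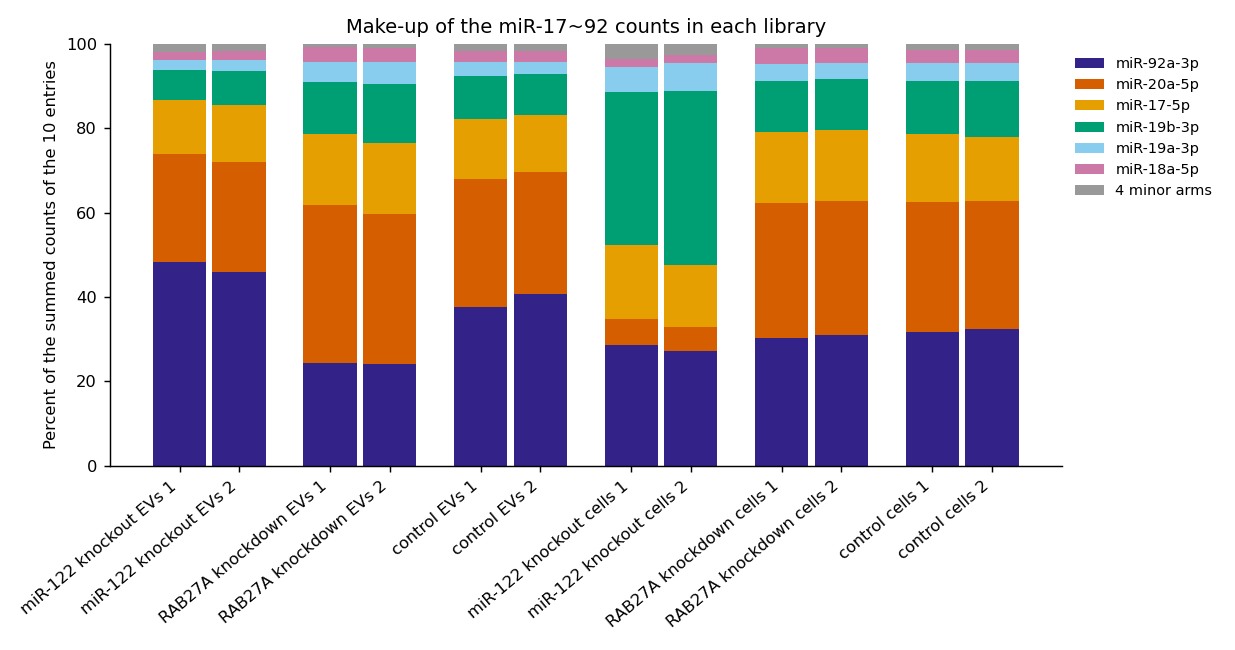
Stacked bars give the percent of the cluster's summed counts held by each guide strand and by the 4 minor arms together, with one bar for each library. In both knockout cell libraries miR-19b-3p is the largest part, with 38.9% on average, and miR-20a-5p holds 5.94%.

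In miR-122 knockout cells the members moved apart: most guide strands fell, miR-20a most of all, while miR-19b-3p and the passenger miR-17-3p rose. Of the 10 members, 6 were lower and 2 higher than in control cells, where 62.3% of the 613 miRNAs tested passed in either direction (edgeR's quasi-likelihood test, Benjamini-Hochberg adjusted over all miRNAs tested). The members' count of 8 stands against that background, so passing the test does not mark the cluster. Over all miRNAs tested, 27.7% passed as higher and 34.6% as lower. Members had a median log2 fold change of -0.65, against -0.08 over all miRNAs tested. The 2 knockout cell libraries differed from each other more than any other pair. Their chi-square per degree of freedom was 211, against 31.8 in control cells of similar depth and 8.75 to 31.8 over the other groups. The SE rests on a spread shared between groups, so it may be too small wherever these 2 libraries are compared.

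miR-20a-5p had 281 and 347 CPM in knockout cells, against 3836 and 4011 CPM in control cells. The groups were more than an order of magnitude apart, and its log2 fold change was -3.31 ± 0.12 (SE, edgeR adjusted p = 5.37e-15). Its passenger miR-20a-3p had 2.85 and 2.24 CPM in knockout cells, against 20.1 and 23.9 CPM in control cells, and fell by 2.76 on the log2 scale. miR-18a-5p had 84.7 and 106 CPM, against 398 and 422 CPM in control cells. It fell by 1.77 ± 0.13 (SE, edgeR adjusted p = 1.95e-10). miR-17-5p, with the same seed as miR-20a-5p, had 786 and 899 CPM, against 1981 and 2001 CPM, and its log2 fold change was -0.90 ± 0.11. miR-92a-3p had 1292 and 1674 CPM, against 3934 and 4260 CPM, and its log2 fold change was -1.14 ± 0.11. None of these 5 overlapped between the groups. With 2 libraries against 2, chance alone leaves no overlap at a rate of 0.333, here and below. The share of all miRNAs without overlap was not counted, so a lack of overlap does not set these 5, or the members below, apart from other miRNAs. All 5 kept their direction and their call in the 14 other settings run.

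The miR-19 pair went opposite ways in this comparison under TMM scaling, but not with a GC-content offset. miR-19b-3p had 1639 and 2546 CPM in knockout cells, against 1563 and 1727 CPM in control cells, so the CPM ranges overlap. Its log2 fold change was 0.67 ± 0.13 (SE, edgeR adjusted p = 0.000135), and with total counts in place of TMM scaling it was 0.35 with an adjusted p of 0.104. miR-19a-3p had 265 and 408 CPM in knockout cells, against 529 and 575 CPM in control cells. Its log2 fold change of -0.39 ± 0.13 (edgeR adjusted p = 0.0141) turned to 0.79 with a GC-content offset, and without control replicate 2 it was -0.33 with an adjusted p of 0.185. miR-17-3p had 67.9 and 69.4 CPM, against 41.2 and 42.7 CPM, and rose by 1.06 ± 0.15 on the log2 scale, with 0.71 to 1.15 over the other settings and the call kept in each. miR-18a-3p (log2 fold change -0.10 ± 0.17) and miR-92a-1-5p (0.28 ± 0.15) did not pass. With total counts the share of higher miRNAs among all calls was 32.4% in place of 44.5%, and the median of all miRNAs shifted by -0.33.

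**Figure D3:**
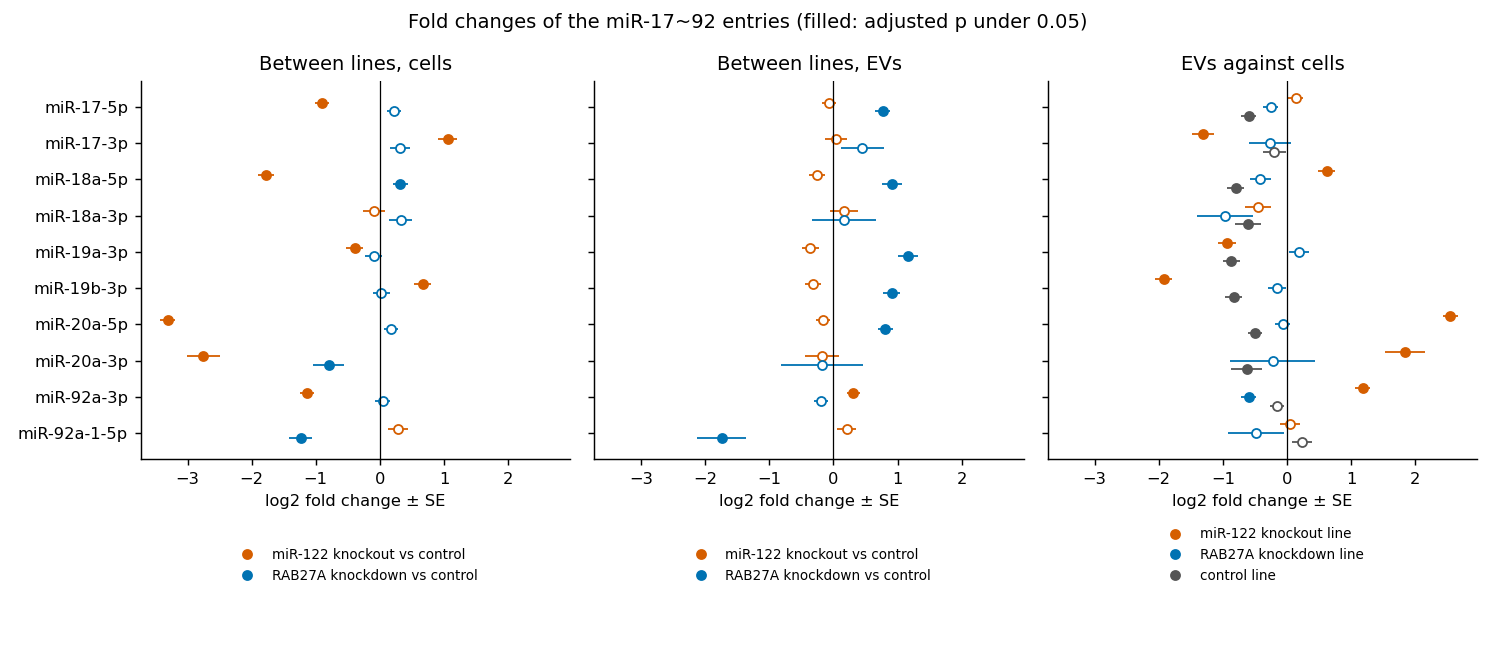
Log2 fold changes with SE for the 10 members between lines in cells, between lines in EVs, and between EVs and cells within each line. Filled points passed the test at an adjusted p of 0.05. In knockout cells miR-20a-5p is farthest from 0 (-3.31), and in the comparison of knockout EVs with knockout cells it lies at the opposite side (2.55).

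Fold changes in the knockout comparison ran with the GC content of the mature sequence. Over the 535 miRNAs with a sequence, Spearman's rho between log2 fold change and GC content was 0.45 for knockout against control cells and 0.01 for knockdown against control cells. The GC content of the members ran between 34.8% for miR-19a-3p and 56.5% for miR-18a-3p, and it was 39.1% for both miR-20a-5p and miR-19b-3p. These 2 members of equal GC content stood at log2 fold changes of -3.31 and 0.67. With a GC-content offset miR-20a-5p stood at -2.59, at the weaker end of the range of -3.64 to -2.59 over all settings. With the same offset miR-19a-3p went from -0.39 to 0.79. The part of GC content in the changes of miR-20a-5p and of the other members was not tested.

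**Figure D4:**
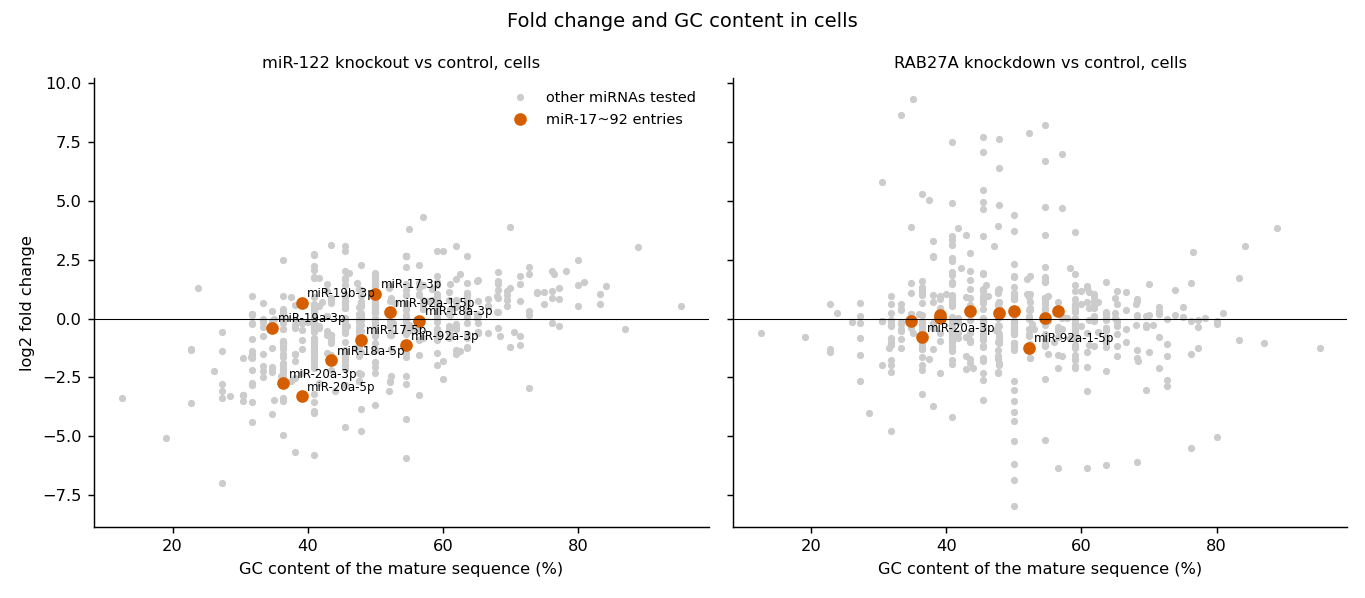
Log2 fold change against GC content (%) of the mature sequence, for knockout against control cells and for knockdown against control cells, with one point for each miRNA and the cluster entries in colour. The whole cloud leans upward in the knockout comparison (rho 0.45) and not in the knockdown comparison (rho 0.01), and miR-20a-5p and miR-19b-3p lie at the same GC content.

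Knockout cells set against knockdown cells had 3 members higher and 6 lower, where 64.4% of 613 miRNAs passed (30.7% higher, 33.8% lower). This comparison shares the knockout libraries with the one above. miR-20a-5p had 281 and 347 CPM in knockout cells, against 4239 and 4508 CPM in knockdown cells, a log2 fold change of -3.48 ± 0.12. miR-18a-5p stood at -2.09 ± 0.13, miR-92a-3p at -1.18 ± 0.11 and miR-17-5p at -1.12 ± 0.11. miR-20a-3p stood at -1.96 ± 0.30. miR-92a-1-5p, the minor arm of the last hairpin, was higher in knockout cells at 1.52 ± 0.18, as were miR-17-3p at 0.74 ± 0.16 and miR-19b-3p at 0.64 ± 0.13. miR-19a-3p did not pass at -0.30 ± 0.13 (edgeR adjusted p = 0.0581). It passed as lower with RLE size factors (-0.32), with total counts (-0.60) and without control replicate 1 (-0.41) or knockout replicate 2 (-0.50), and as higher with a GC-content offset (0.62). miR-18a-3p passed narrowly (edgeR adjusted p = 0.0479) and lost the call in 6 of 14 other settings, among them without control replicate 2 or either knockdown replicate. Leaving out knockdown replicate 1 left miR-17-3p at an adjusted p of 0.0650 and miR-19b-3p at 0.0947. With total counts the share of higher calls was 36.9% in place of 47.6%.

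In RAB27A knockdown cells 2 minor arms fell, and 5 of the 6 guide strands did not pass the test. Among the members 1 was higher and 2 lower, where 53.8% of 613 miRNAs passed (24.3% higher, 29.5% lower). miR-92a-1-5p had 32.0 and 28.0 CPM in knockdown cells, against 71.4 and 71.7 CPM in control cells. The groups did not overlap, and it fell by 1.24 ± 0.17 on the log2 scale (SE, edgeR adjusted p = 4.43e-06). The call was kept in all 14 other settings, with -1.46 to -1.11. Its partner miR-92a-3p had 3972 and 4389 CPM, against 3934 and 4260 CPM, and did not pass at 0.04 ± 0.11. miR-20a-3p had 11.4 and 13.7 CPM in knockdown cells, against 20.1 and 23.9 CPM in control cells, and fell by 0.80 ± 0.24, a call lost in 5 settings, among them without control replicate 2 and without either knockdown replicate. miR-18a-5p had 500 and 513 CPM, against 398 and 422 CPM, a log2 fold change of 0.32 ± 0.12 (edgeR adjusted p = 0.0314) that lost its call in 6 settings, among them without any one of the 4 libraries compared.

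miR-17-5p (0.22 ± 0.11), miR-20a-5p (0.17 ± 0.11), miR-19a-3p (-0.10 ± 0.13), miR-19b-3p (0.02 ± 0.13), miR-17-3p (0.31 ± 0.16) and miR-18a-3p (0.32 ± 0.18) did not pass. The number of members called in knockdown cells depended on single libraries and on scaling. It was 1 without control replicate 2 and 1 without either knockdown replicate, and 6 without either of the knockout cell libraries, which enter only through the shared spread and filter. Fitting the 4 compared libraries alone or scaling by RLE size factors gave 7. Under both, miR-17-5p, miR-17-3p, miR-18a-3p and miR-20a-5p passed as higher, with log2 fold changes of 0.20 to 0.45.

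In RAB27A knockdown EVs the miR-17, miR-18 and miR-19 guide strands were all higher than in control EVs. Of the 10 members 5 were higher and 1 lower, where 46.3% of the 488 miRNAs tested passed (18.9% higher, 27.5% lower). The members' median log2 fold change was 0.61, against -0.29 over all miRNAs tested. miR-19a-3p had 783 and 834 CPM in knockdown EVs, against 363.2 and 303.9 CPM in control EVs, and rose by 1.16 ± 0.16 (SE, edgeR adjusted p = 5.12e-05). miR-20a-5p had 5994 and 5623 CPM, against 3209 and 2898 CPM, and rose by 0.81 ± 0.11. The groups did not overlap for either miRNA. miR-18a-5p rose by 0.91 ± 0.16, miR-19b-3p by 0.91 ± 0.13 and miR-17-5p by 0.77 ± 0.12. miR-92a-3p, at 3893 and 3792 CPM in knockdown EVs and 3993 and 4098 CPM in control EVs, did not pass, nor did the minor arms miR-17-3p (0.45 ± 0.34), miR-18a-3p (0.17 ± 0.50) and miR-20a-3p (-0.18 ± 0.64).

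The minor arm miR-92a-1-5p again went down, with 24.3 and 35.2 CPM in knockdown EVs against 91.7 and 92.8 CPM in control EVs. Those knockdown values rest on few counts, since 1 count was worth about 6 CPM, and the log2 fold change was -1.74 ± 0.38 (edgeR adjusted p = 0.00219). All 6 calls held in each of the 15 other settings. Control EVs also held the blood-cell, serum and stromal miRNAs given above, at 10988 and 3249 CPM, and their part in these differences was not tested. With a GC-content offset the share of higher calls over all miRNAs was 56.0% in place of 40.7%, and the median of all miRNAs shifted by 0.36.

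In miR-122 knockout EVs few members passed the test against control EVs. A single member, 1 of 10, passed and was higher, where 41.2% of 488 miRNAs passed (18.9% higher, 22.3% lower). miR-92a-3p had 3941 and 3770 CPM in knockout EVs, against 3993 and 4098 CPM in control EVs, and its log2 fold change under TMM scaling was 0.31 ± 0.10 (edgeR adjusted p = 0.0298). This call held in 3 of 15 other settings, was lost without any one of the 4 libraries compared or knockdown EV replicate 2, and with total counts the log2 fold change was -0.07. miR-20a-5p had 2080 and 2135 CPM, against 3209 and 2898 CPM. Its CPM did not overlap, yet its log2 fold change was -0.16 ± 0.11 with an adjusted p of 0.28. The result depended on the scaling: with total counts the median of all miRNAs shifted by -0.38, and miR-17-5p, miR-18a-5p, miR-19a-3p, miR-19b-3p and miR-20a-5p passed as lower, at -0.45 to -0.73. The share of higher calls over all miRNAs was then 19.2% in place of 45.8%, and with DESeq2 it was 35.1%.

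The other 8 members did not pass under TMM scaling, with log2 fold changes between -0.36 for miR-19a-3p and 0.21 for miR-92a-1-5p. Single libraries also moved this count. It was 0 without control EV replicate 1 and without knockout EV replicate 1, 2 without control EV replicate 2, and 3 or 4 without knockdown EV replicate 1 or 2. The same blood-cell and stromal difference lies beside it, and its part was not tested.

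Between the 2 modified lines, knockout EVs had lower miR-17, miR-18 and miR-19 guide strands than knockdown EVs. In this comparison 2 members were higher and 5 lower, where 40.4% of 488 miRNAs passed (22.7% higher, 17.6% lower). miR-19a-3p had 192 and 209 CPM in knockout EVs, against 783 and 834 CPM in knockdown EVs, a log2 fold change of -1.52 ± 0.16. miR-19b-3p stood at -1.23 ± 0.13, miR-18a-5p at -1.16 ± 0.16, miR-20a-5p at -0.97 ± 0.11 and miR-17-5p at -0.84 ± 0.12. miR-92a-1-5p was higher by 1.95 ± 0.37, and miR-92a-3p by 0.50 ± 0.11, the last of which was 0.00 with total counts and 0.01 with a GC-content offset. The minor arms miR-17-3p (-0.41 ± 0.34), miR-18a-3p (-0.0038 ± 0.49) and miR-20a-3p (0.0082 ± 0.65) did not pass. With total counts the share of higher calls was 35.3%, and with the GC-content offset 41.3%, in place of 56.3%.

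EVs were then set against the cells that released them. In the control line most of the cluster was lower in EVs. Of the 10 members 7 were lower and 0 higher, where 53.7% of 574 miRNAs passed (30.8% higher, 22.8% lower). The median log2 difference of EVs and cells was -0.60 for the members and 0.02 for all miRNAs tested. miR-19b-3p had 1077 and 958 CPM in control EVs, against 1563 and 1727 CPM in control cells, and fell by 0.83 ± 0.13. miR-19a-3p fell by 0.87 ± 0.14, miR-18a-5p by 0.80 ± 0.13, miR-17-5p by 0.60 ± 0.11 and miR-20a-5p by 0.50 ± 0.11. The passengers miR-18a-3p and miR-20a-3p fell by 0.60 ± 0.21 and 0.63 ± 0.24. The 5 guide strands kept the call in all 20 other settings, while miR-18a-3p lost it in 3 and miR-20a-3p in 4 of 19, both among them without control cell replicate 2, and each also without 1 control EV library. miR-92a-3p had 3993 and 4098 CPM in EVs, against 3934 and 4260 CPM in cells, and did not pass, nor did miR-17-3p (-0.20 ± 0.18) or miR-92a-1-5p (0.23 ± 0.16). The blood-cell, serum and stromal miRNAs, at 10988 and 3249 CPM in control EVs against 278 and 15.5 CPM in control cells, moved with this comparison, and their part was not tested.

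In the knockdown line few members passed the test between EVs and cells. Only miR-92a-3p, 1 of the 10 members, passed, where 19.3% of 574 miRNAs did (7.32% higher, 12% lower). It had 3893 and 3792 CPM in knockdown EVs, against 3972 and 4389 CPM in knockdown cells, and fell by 0.60 ± 0.12 under TMM scaling. The other 9 members lay between -0.97 ± 0.44 for miR-18a-3p and 0.19 ± 0.16 for miR-19a-3p. miR-92a-3p did not pass with total counts (-0.12) or with a GC-content offset (-0.11). miR-19a-3p passed as higher under both, at 0.66 and 0.49, and miR-20a-5p turned to 0.41 and passed with total counts. The count was 0 after thinning all libraries to the shallowest one and 2 to 4 after leaving out any of 10 of the 12 libraries. Without knockdown cell replicate 1 or knockout cell replicate 2 it was 4, and without knockout cell replicate 1 or knockdown EV replicate 1 it was 3. The share of higher calls over all miRNAs was 75.6% with total counts, 60.3% with a GC-content offset and 53.3% with DESeq2, in place of 37.8%.

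In the knockout line members moved both ways between EVs and cells. Here 4 members were higher and 3 lower, where 59.1% of 574 miRNAs passed (33.3% higher, 25.8% lower). miR-20a-5p had 2080 and 2135 CPM in knockout EVs, against 281 and 347 CPM in knockout cells, and rose by 2.55 ± 0.12 (SE, edgeR adjusted p = 1.74e-24). miR-92a-3p had 3941 and 3770 CPM in EVs, against 1292 and 1674 CPM in cells, and rose by 1.18 ± 0.11. Neither overlapped. miR-20a-3p rose by 1.84 ± 0.31. miR-18a-5p rose by 0.62 ± 0.13, a call lost with a GC-content offset (0.23) and with thinned libraries (-0.31).

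The other 3 called members were lower in knockout EVs than in knockout cells. miR-19b-3p had 586 and 669 CPM in EVs, against 1639 and 2546 CPM in cells, and fell by 1.92 ± 0.13. miR-17-3p fell by 1.31 ± 0.17 and miR-19a-3p by 0.94 ± 0.14. miR-17-5p (0.14 ± 0.11), miR-18a-3p (-0.45 ± 0.20) and miR-92a-1-5p (0.05 ± 0.16) did not pass. Spearman's rho between log2 difference and GC content was -0.37 over 506 miRNAs in this line, -0.06 in the control line and 0.06 in the knockdown line.

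The differences of EVs and cells were compared between lines in one model. With miR-122 knockout the difference changed for 7 of the 10 members, 5 upward and 2 downward, where 48.3% of 574 miRNAs passed (24.9% upward, 23.3% downward). The change was 3.05 ± 0.16 on the log2 scale for miR-20a-5p (edgeR adjusted p = 5.25e-22), 2.47 ± 0.39 for miR-20a-3p and 1.42 ± 0.19 for miR-18a-5p. It was 1.34 ± 0.16 for miR-92a-3p and 0.73 ± 0.16 for miR-17-5p. miR-17-3p and miR-19b-3p changed downward, by -1.11 ± 0.25 and -1.09 ± 0.18. These calls held in every other setting except with libraries thinned to the shallowest, where miR-18a-5p stood at 0.29 and did not pass, and where miR-17-3p and miR-20a-3p fell under the low-count filter. miR-18a-3p (0.15 ± 0.29), miR-19a-3p (-0.07 ± 0.19) and miR-92a-1-5p (-0.18 ± 0.22) did not pass, but with a GC-content offset miR-19a-3p passed at -0.78. In the same test 6 of the 10 blood-cell and serum miRNAs and 5 of the 5 stromal miRNAs changed downward, with medians of -5.81 and -4.85, against -0.14 over all miRNAs tested. Their part in the members' changes was not tested. The 7 members called here also passed in knockout against control cells, each in the opposite direction. In knockout against control EVs only miR-92a-3p passed under TMM scaling, and miR-20a-5p stood at -0.16 ± 0.11. The changes thus follow the cell comparison in large part. They use the same 2 knockout cell libraries, so their SE may also be too small.

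With RAB27A knockdown the difference changed for 3 members, where 18.6% of 574 miRNAs passed (4.36% upward, 14.3% downward). miR-19a-3p changed by 1.05 ± 0.21 (edgeR adjusted p = 0.000104) and miR-19b-3p by 0.68 ± 0.19, both upward. The call of miR-19b-3p was lost without control cell replicate 2, knockdown cell replicate 2, control EV replicate 2 or knockdown EV replicate 2. miR-92a-3p changed by -0.44 ± 0.16 (edgeR adjusted p = 0.0493), lost its call in 13 of 20 other settings, 8 of which leave out one library, and turned to 0.15 with a GC-content offset. The count was 1 without control cell replicate 2, knockdown cell replicate 2 or control EV replicate 2. The share of higher calls over all miRNAs was 52.6% with total counts, 52.8% with the GC-content offset and 33.6% with DESeq2, in place of 23.4%. The other 7 members did not pass, with values between -0.71 ± 0.46 for miR-92a-1-5p and 0.44 ± 0.16 for miR-20a-5p. Of the blood-cell and serum list 4 of 10 changed downward, and of the stromal list 3 of 5, and their part was not tested. The 2 tests share the control libraries.

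Ratios of 2 members in one library need no scaling factor. The minor arm made up a larger share of its hairpin in knockout cells than in any other group for all 4 hairpins with both arms measured. miR-17-3p was 7.56% ± 0.551 of the miR-17 counts in knockout cells and 2.06% to 2.91% in the means of the other groups. miR-18a-3p was 21.0% ± 0.694 in knockout cells and 5.36% to 11.2% elsewhere. miR-20a-3p was 0.822% ± 0.257 in knockout cells and 0.257% to 0.556% elsewhere, and its lower knockout library, at 0.640%, lay close to the highest other library, at 0.595%. miR-92a-1-5p was 4.48% ± 0.872 of the counts of both arms in knockout cells, 0.716% ± 0.116 in knockdown cells and 1.72% ± 0.0902 in control cells (SD, n = 2 each). In EVs it was 2.07% ± 0.226 for the knockout, 0.770% ± 0.212 for the knockdown and 2.23% ± 0.0216 for the control. The share of miR-92a-1-5p also counts miR-92a-3p made from the X chromosome. With 2 libraries against 2, an exact permutation test cannot give a p below 0.333, so these shares carry no test. Shares over other hairpins were not counted. In the paralogous cluster miR-106b~25, described below, miR-106b-3p, miR-93-3p and miR-25-5p also passed as higher in knockout than in control cells. Their log2 fold changes were 0.35, 0.64 and 0.42, and the other arms of these hairpins did not pass. GC content was higher in the minor arm than in the guide strand for miR-17 and miR-18a and lower for miR-20a and miR-92a. Its part in the shares was not tested.

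**Figure D5:**
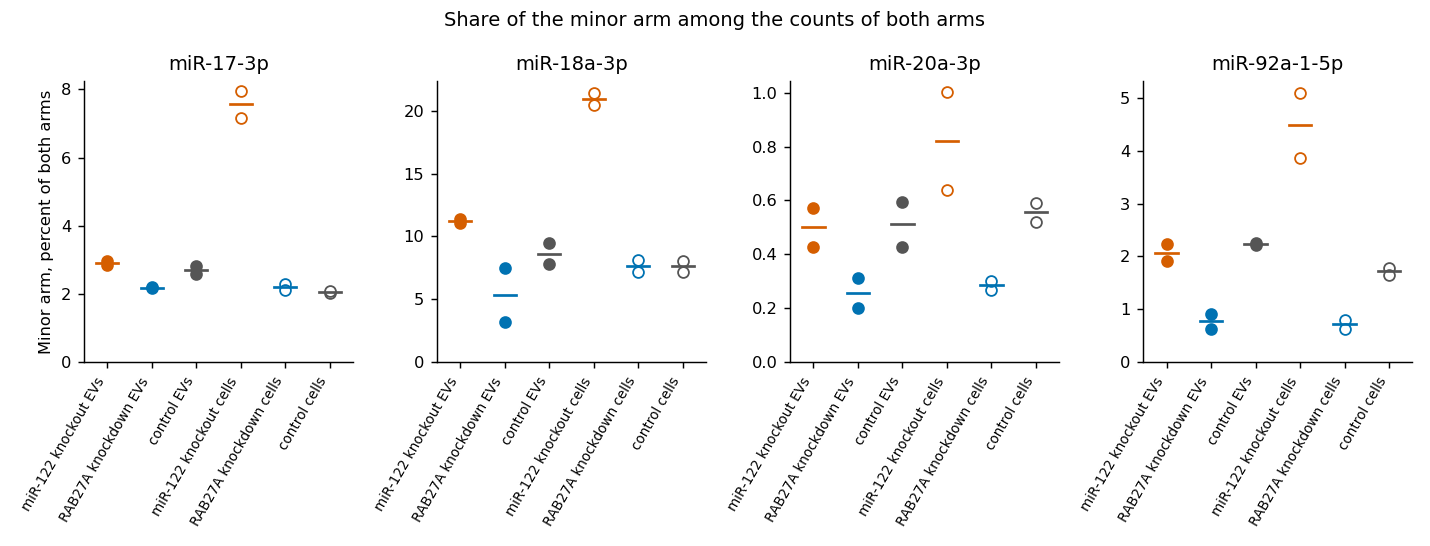
Share of the minor arm (percent of the counts of both arms) for 4 hairpins, with a point for each library and a line at each group's mean. Knockout cells are highest for miR-17-3p (7.56%), miR-18a-3p (21.0%), miR-20a-3p (0.822%) and miR-92a-1-5p (4.48%), and both knockdown groups are lowest for miR-92a-1-5p.

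The ratio of miR-20a-5p to miR-17-5p, which share a seed, was nearly constant outside knockout cells. It was 1.98 ± 0.0402 in knockout EVs, 2.17 ± 0.0663 in knockdown EVs and 2.11 ± 0.00707 in control EVs. In cells it was 0.372 ± 0.0197 for the knockout, 1.91 ± 0.0213 for the knockdown and 1.97 ± 0.0482 for the control (SD, n = 2 each). Over the 3 lines, 9 ratios were compared between EVs and cells with libraries permuted within each line. 0 of the 9 passed after Benjamini-Hochberg adjustment, and 1 had an unadjusted p under 0.05. That was the ratio of miR-20a-5p to miR-17-5p, higher in EVs by 0.90 on the log2 scale on average (two-sided exact permutation p = 0.00926, the smallest these permutations can give, adjusted p = 0.0833). The log2 difference was 2.41 in the knockout line, 0.19 in the knockdown line and 0.10 in the control line, so most of the average came from the knockout line.

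Of the 2 remaining arms of the hairpins, miR-19a-5p had at most 3 counts in any library and was not tested. miR-19b-1-5p had 4.84 ± 3.22 CPM in knockout cells, 1.90 ± 0.890 CPM in knockdown cells and 3.66 ± 0.443 CPM in control cells (SD, n = 2 each), and did not pass in either line against the control. It passed as higher in knockout than in knockdown cells (1.63 ± 0.51). In EVs it passed as lower than in cells in the control line (-1.72 ± 0.60) and the knockout line (-1.54 ± 0.47). It did not pass in the other comparisons. Its counts were few, at 6 in control EVs and 13 in knockout EVs.

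The cluster has 2 paralogous clusters. miR-106a~miR-363 on the X chromosome holds the copies of miR-19b and miR-92a and near copies of miR-17, miR-18a and miR-20a. miR-106b~25 lies on chromosome 7 in the MCM7 gene. Their guide strands are shown because they share the seeds of the cluster, in capitals. The near copies miR-106a-5p, miR-20b-5p and miR-18b-5p may also share reads with it.
miR-106a-5p: aAAAGUGCuuacagugcagguag
miR-20b-5p: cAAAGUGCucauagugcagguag
miR-18b-5p: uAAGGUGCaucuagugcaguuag
miR-363-3p: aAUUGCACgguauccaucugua
miR-106b-5p: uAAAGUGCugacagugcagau
miR-93-5p: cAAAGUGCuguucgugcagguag
miR-25-3p: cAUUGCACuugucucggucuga
miR-106a-5p differs from miR-17-5p by C1A, miR-20b-5p from miR-20a-5p by U1C and U10C, and miR-18b-5p from miR-18a-5p by A20U.

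Of the 10 entries of miR-106a~miR-363, 4 could be tested in cells and 3 in EVs. These are the entries that passed the low-count filter, which a high level in one group is enough to pass. In knockdown cells the 4 tested were higher than in control cells, where 24.3% of miRNAs passed as higher. miR-363-3p had 167 and 163 CPM in knockdown cells, against 1.18 and 0.633 CPM in control cells. miR-20b-5p had 79.1 and 88.2 CPM, against 2.79 and 3.16 CPM, and rose by 4.82 ± 0.22. In knockout cells miR-20b-5p had 2 and 1 counts, or 0.197 and 0.102 CPM, and miR-363-3p had 0 counts in both libraries, which allows up to 0.295 and 0.305 CPM. miR-106a-5p had 6.29 and 8.03 CPM in knockout cells, 53.2 and 65.0 CPM in knockdown cells and 14.9 and 14.8 CPM in control cells. In knockdown cells the cluster's own miR-20a-5p stood at 0.17 ± 0.11 and miR-92a-3p at 0.04 ± 0.11 against control cells, and neither passed. The same 3 that could be tested in EVs were higher in knockdown EVs and lower in knockout EVs than in control EVs. Over all miRNAs 18.9% passed as higher and 22.3% as lower, and the same limit of the filter holds. miR-363-3p had 182 and 200 CPM in knockdown EVs, 0.266 and 0 CPM in knockout EVs, and 17.6 and 10.4 CPM in control EVs. Levels of these near copies were below those of the matching cluster members, and the part of shared reads was not tested.

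All 6 entries of miR-106b~25 were tested. In knockdown cells all 6 were lower than in control cells, with a median log2 fold change of -0.73 against -0.11 over all miRNAs tested, and 29.5% of miRNAs passed as lower. miR-93-5p, its most abundant member, had 3378 and 3602 CPM in knockdown cells, against 5467 and 5698 CPM in control cells, and fell by 0.66 ± 0.11. In knockout cells 3 of the 6 were higher and 0 lower than in control cells, where 27.7% of miRNAs passed as higher and 34.6% as lower. The guide miR-93-5p, at 3950 and 4313 CPM in knockout cells, had a log2 fold change of -0.09 ± 0.11 and did not pass, and miR-106b-5p stood at 0.09 ± 0.12. These seed relatives of miR-20a-5p stood beside its change of -3.31. In EVs 5 of 6 were lower in the knockdown than in the control, where 27.5% of miRNAs passed as lower. In knockout EVs 1 was higher and 1 lower than in control EVs, where 18.9% of miRNAs passed as higher and 22.3% as lower.

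Among other miRNAs with a seed of the cluster, 13 in the table, 9 could be tested in knockout against control cells. They include guide strands of both paralogous clusters. Of the 9, 5 were lower, 0 higher and 4 did not pass, where 34.6% of miRNAs passed as lower and 27.7% as higher. miR-32-5p was among those that fell. It had 13.7 and 15.6 CPM in knockout cells, against 211 and 217 CPM in control cells, and fell by 3.53 ± 0.15. It had 139 and 167 CPM in knockout EVs, against 238 and 191 CPM in control EVs, and did not pass. miR-92b-3p, with the seed of miR-92a-3p, fell by 1.21 ± 0.12 in knockout cells.

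The members' profiles over the 12 libraries were compared by Pearson's r on log2(CPM + 1), as a description of libraries that share lines, depth and RNA type. miR-17-5p and miR-18a-5p were closest, at 0.99, and miR-20a-5p and miR-92a-3p stood at 0.94. miR-17-5p and miR-19b-3p reached 0.39, and miR-20a-5p and miR-19b-3p -0.07. miR-92a-1-5p ran against miR-17-5p at -0.71. Of 199 other miRNAs with a mean of at least 50 CPM, the nearest to the mean of the 5 guide strands without miR-92a-3p were miR-107 at 0.97, miR-301a-3p at 0.95, miR-340-5p at 0.94, miR-148a-3p at 0.93 and miR-660-5p at 0.91. The nearest to miR-92a-3p were miR-454-3p at 0.98, and miR-590-3p, miR-151a-5p, miR-151b and miR-32-5p at 0.97.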

How the data were processed

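Small RNA libraries of 12 samples were sequenced on an Illumina Genome Analyzer IIx, per the labels' protocols. The submitters' processing notes name cutadapt, Bowtie and hg19. No source used here gives their versions, mismatch limits or miRNA annotation. The deposited values are raw read counts per mature miRNA made by the authors, with no molecular identifiers, so intervals and floors (3 counts) cover counting error only. From them, edgeR 4.0.16 (with limma 3.58.1, R 4.3.3) was run: filterByExpr, TMM scaling, glmQLFit with robust spread and glmQLFTest. Calls are Benjamini-Hochberg adjusted p under 0.05 over all miRNAs tested. Line comparisons used the 6 libraries of cells or of EVs, and EV comparisons all 12. The SE is the absolute log2 fold change over the square root of F. CPM is the count over the library total, times 1000000. GC content came from RefSeq sequences for 87.6% of tested miRNAs. Ratios used counts plus 0.5 and an exact permutation test (scipy 1.17.1).

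Alternatives were RLE size factors, total counts, DESeq2 1.42.0, no filter, leaving out each library, a replicate block, a GC-content offset, the 4 compared libraries alone, and libraries thinned to the shallowest. The script was tested on simulated data. All 10 members were tested in each comparison. Other miRNAs are named where they head their list, share reads or a hairpin copy with a member, share its seed, or are among the 5 nearest in profile. The members and lists were chosen with earlier results of these data known. No 2 libraries were identical. Replicate numbers were not taken as pairs, since there are 2 in each group and no label says that a number marks a shared batch.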

Additional observations from a re-analysis of the deposited data

Results flagged for a closer look

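The difference of EVs and cells itself differed between the lines for 7 members with miR-122 knockout and for 3 with RAB27A knockdown, by interaction tests in edgeR that called 48.3% and 18.6% of the 574 miRNAs tested. With miR-122 knockout, the log2 difference changed relative to the control line by 3.05 for miR-20a-5p, 2.47 for miR-20a-3p, 1.42 for miR-18a-5p, 1.34 for miR-92a-3p and 0.73 for miR-17-5p. It changed by -1.11 for miR-17-3p and by -1.09 for miR-19b-3p. These 7 members also passed in the opposite direction in knockout against control cells. Only miR-92a-3p passed in knockout against control EVs under TMM scaling. With RAB27A knockdown the log2 difference changed by 1.05 for miR-19a-3p, 0.68 for miR-19b-3p and -0.44 for miR-92a-3p. With 2 libraries in each group, no sample could be tested for standing apart from its group.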

How the results depend on the processing

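For knockout against control in cells, knockout against knockdown in cells and in EVs, knockdown against control in EVs, and control EVs against control cells, the count of members called stayed within 1.5 times of the reported count in all other settings. For knockdown against control in cells, 3 members were called, 7 with RLE size factors, 5 with DESeq2, 7 with a GC-content offset, 6 with that offset and the replicate block and 7 with the 4 libraries alone. For knockout against control in EVs, 1 was called, 3 with RLE, 5 with total counts, 5 with DESeq2, 3 with the 4 libraries alone, and 0 with the replicate block, with the GC-content offset and with both. For EVs against cells in the knockdown line, 1 was called, 2 with total counts, 2 with the replicate block and 0 with thinned libraries. In the knockout line 7 were called and 4 with thinned libraries, in which miR-17-3p, miR-18a-3p and miR-20a-3p were not tested. The change with RAB27A knockdown gave 3, and 5 with total counts, DESeq2, the GC-content offset and that offset with the block. The change with miR-122 knockout gave 7, and 4 with thinned libraries. Of the 9 ratios 0 passed, and 1 with the line ignored. Leaving out one library at a time gave 1 to 6 members for knockdown and 7 to 9 for knockout against control in cells, 6 to 10 for knockout against knockdown cells, 6 to 7 for knockdown and 0 to 4 for knockout against control in EVs, and 7 to 7 for knockout against knockdown EVs. It gave 1 to 4 in the knockdown line, 7 to 8 in the knockout line and 5 to 9 in the control line for EVs against cells, 1 to 3 and 7 to 7 for the changes with knockdown and with knockout, and 0 to 0 for the ratios. Among values called in at least 1 of the settings compared, signs turned for miR-19a-3p in knockout against control cells (0.79 with the GC-content offset, 0.78 with the block added) and against knockdown cells (0.62 and 0.61), for miR-92a-3p in knockout against control EVs (-0.070, total counts), for miR-20a-5p in the knockdown line (0.41, total counts), for miR-18a-5p in the knockout line (-0.31, thinned) and for the change of miR-92a-3p with knockdown (0.15 with the offset and 0.15 with the block added). Values not called changed sign in more settings, such as miR-17-3p in knockout against control EVs in 11. The cause was not tested. Over all miRNAs, calls for knockdown against control cells were 330, and 196 and 218 without knockdown replicate 1 or 2. For knockout against control EVs they were 201, 127 without control replicate 2 and 79 with thinned libraries. Thinning also left 102 of 308 calls for EVs against cells in the control line, 114 of 339 in the knockout line, 57 of 107 for the change with knockdown and 95 of 277 for that with knockout. The labels do not say that replicate numbers pair libraries: replicate differences of same-numbered libraries correlated at 0.46, 0.24 and 0.16 among cell groups and at -0.36 to 0.25 otherwise (206 miRNAs). With the block miR-19a-3p passed in knockout against knockdown cells (-0.31, edgeR adjusted p = 0.0362). The depth of the knockdown EVs limits what can be said of the minor arms there.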
